A study of Rattus norvegicus with 12 samples.

Results

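The dorsal hippocampus (DH) of Sprague-Dawley rats was compared between postnatal day 14 (P14) and postnatal day 28 (P28). These ages are set by the labels, and the comparison holds 4 of the 12 RNA-seq libraries of the study, 2 from P14 DH and 2 from P28 DH. The other libraries came from the DH at P45 and from the ventral hippocampus (VH) at P14, P28 and P45, again with 2 each. The labels name no transgene and no treatment in any group. DH and VH stand for the end pieces of a hippocampus divided evenly along its length. Each piece holds all subfields up to the subiculum, and the data have no library from the piece between them. Neither the labels nor the methods say whether the duplicates came from separate animals, which sex was used or whether tissue was pooled, so the p-values measure the spread between libraries, and this spread may be technical. The question is which genes and pathways of the DH changed over these weeks of early maturation. Any batch that goes with age cannot be told apart from age. Levels are FPKM (fragments relative to transcript length and to all mapped fragments), which are already divided by transcript length. Fold changes are on the scale log2(FPKM + 1), which understates the change of transcripts with low values.

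Between P14 and P28 the rat hippocampus passes from the time when the eyes open to the time after weaning. During this period oligodendrocytes wrap axons in myelin, the dentate gyrus sends most of its new granule cells towards maturity, growth cones give way to synapses, and neurons acquire the channels that let them fire fast and precisely. Doublecortin, the collapsin response mediator proteins and the embryonic tubulins belong to newborn and growing neurons, whereas the myelin proteins, the auxiliary subunits of sodium and potassium channels and the kinases of the postsynaptic density belong to the mature tissue.

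The tissue labels were checked against regional markers. Nts, the neuropeptide neurotensin, used as a dorsal marker, was at 63 and 45.6 FPKM at P14 and 89.8 and 67 FPKM at P28 in the DH and at 7.04 and 16.9 FPKM at P14 and 6.02 and 3.85 FPKM at P28 in the VH. Cyp26b1, the retinoic acid hydroxylase that also marks the DH, was at 9.81 and 9.17 FPKM at P14 and 8.38 and 10.9 FPKM at P28 in the DH and at 1.22 and 3.22 FPKM at P14 and 1.25 and 1.39 FPKM at P28 in the VH. The ventral markers Nr2f2 and Cpne2 were lower in the DH than in the VH in all libraries of P14 and P28, with Cpne2 at 19.5 and 20.7 FPKM at P14 and 10.3 and 12.8 FPKM at P28 in the DH and at 73.3 and 46 FPKM at P14 and 50.3 and 58.3 FPKM at P28 in the VH. None of these 4 markers was called between P14 and P28 in the DH. The level of Actb, cytoplasmic actin, was 1695 and 1691 FPKM at P14 and 1647 and 1603 FPKM at P28 (log2 fold change −0.059, SE 0.057, adjusted p = 0.611), and that of Gapdh, a glycolytic enzyme, was 1637 and 1788 FPKM at P14 and 2029 and 2043 FPKM at P28 (log2 fold change 0.25, SE 0.073, adjusted p = 0.0808). FPKM values summed to between 511388 and 537102 in the 12 libraries. Among the 14259 transcripts tested, 820 and 872 were listed at 0 in the P14 DH libraries and 1055 and 1204 in the P28 DH libraries, which have the largest numbers of zeros of the 12. By the mapping statistics that accompany the study, these same P28 DH libraries have the fewest uniquely mapped read pairs of the series, so lower depth goes with the zeros, and its part in falls at low levels was not tested.

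A transcript was called where its fold change was above 1.5 and its adjusted p (limma, Benjamini-Hochberg) was under 0.05. Of the 14259 transcripts, 216 (1.51%) were higher and 283 (1.98%) were lower at P28 than at P14, and the median log2 fold change over all of them was 0. For each of these 499 transcripts both P28 libraries lay on the same side of both P14 libraries, a pattern that 26.2% of all transcripts showed upwards and 24.6% downwards. The counts in gene lists stand against these shares, and a count of 1 or 2 members names those genes and is not a result about the list. All lists and their members were chosen with earlier results of these data known, so every list count set against these shares is a description. A fold change above 2 was reached by 66 of the transcripts that rose and by 80 of those that fell, and one above 4 by 3 and by 6. The fit took its estimate of the spread from all 12 libraries, and with only the 4 libraries compared no transcript passed the adjusted threshold (335 higher and 427 lower before adjustment, at a p under 0.05 with the fold kept). Leaving out 1 library gave 77 higher and 133 lower without P14 DH replicate 1, 111 and 136 without P14 DH replicate 2, 143 and 208 without P28 DH replicate 1, and 128 and 140 without P28 DH replicate 2. The counts in the gene lists below were as sensitive. Of 36 list counts above 0, taken in 1 direction each, 29 moved by over 1.5 times in at least 1 of these 4 fits, among them 9 of the 11 counts of 3 or more.

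**Figure D1:**
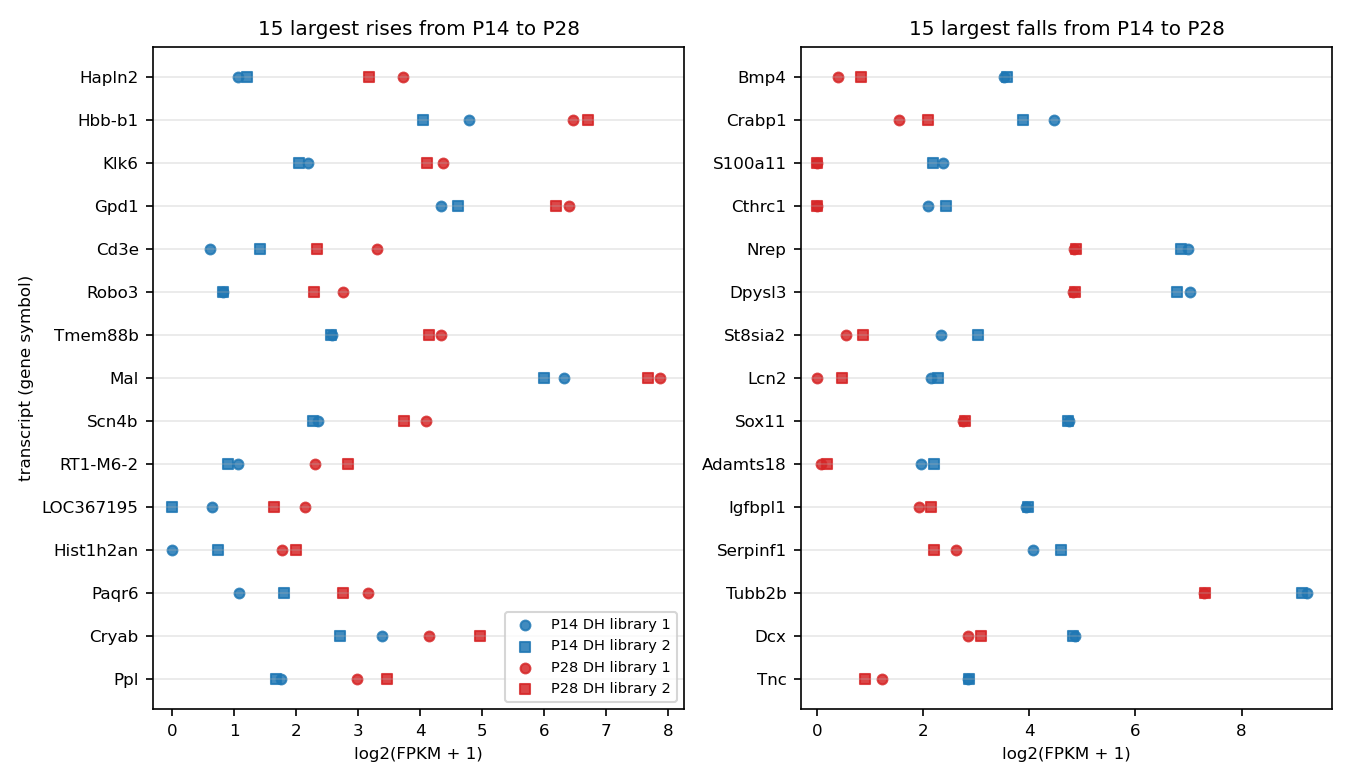
Levels of the 15 transcripts with the largest rise (left) and the 15 with the largest fall (right) between P14 and P28 in the DH, as log2(FPKM + 1) on the horizontal axis, with 1 point for each library (blue, P14 and red, P28). In every line the 2 red points lie on one side of the 2 blue points, with Hapln2 moving from 1.09 and 1.3 to 12.2 and 8.0 FPKM and Bmp4 from 10.5 and 11 to 0.312 and 0.766 FPKM.

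Some genes of myelin and mature oligodendrocytes rose, led by a protein of the node and one of compact myelin. Of the 28 members of this list, all of which were measured, 8 were higher and 0 lower at P28 (28.6%, where 1.51% of all transcripts were called higher), and the median log2 fold change of the list was 0.46. Hapln2, a link protein of the matrix at nodes of Ranvier, had the largest fold change of all transcripts that rose. It was at 1.09 and 1.3 FPKM at P14 and 12.2 and 8.0 FPKM at P28 (log2 fold change 2.31, SE 0.19, adjusted p = 0.000923), and both P28 libraries lay far above both P14 libraries. Among the proteins of compact myelin, Mal was at 79.1 and 62.9 FPKM at P14 and 232 and 204 FPKM at P28 (log2 fold change 1.61, SE 0.31, adjusted p = 0.0223) and Mobp was at 82.2 and 69 FPKM at P14 and 137 and 118 FPKM at P28 (log2 fold change 0.75, SE 0.18, adjusted p = 0.0493). The main transcript of Mbp, myelin basic protein, was at 952 and 763 FPKM at P14 and 1715 and 1379 FPKM at P28 (log2 fold change 0.85, SE 0.23, adjusted p = 0.0643), which did not pass the threshold, and the other transcripts of this gene are given below.

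The surface and cytoplasmic proteins of the myelin sheath divided in the same way. Ermn, an actin-binding protein of late oligodendrocytes, was at 25.2 and 19.9 FPKM at P14 and 57.4 and 68 FPKM at P28 (log2 fold change 1.44, SE 0.25, adjusted p = 0.0144), and Mog, on the outermost myelin membrane, was at 65.3 and 51.5 FPKM at P14 and 102 and 108 FPKM at P28 (log2 fold change 0.85, SE 0.19, adjusted p = 0.0375). Gjb1, the connexin 32 of myelin gap junctions, was at 2.99 and 2.41 FPKM at P14 and 4.64 and 5.88 FPKM at P28 (log2 fold change 0.75, SE 0.14, adjusted p = 0.0202). By contrast, Mag, the adhesion protein next to the axon, was at 148 and 111 FPKM at P14 and 126 and 114 FPKM at P28, and Cnp, a phosphodiesterase of non-compact myelin, was at 379 and 285 FPKM at P14 and 323 and 269 FPKM at P28, with overlapping groups in both cases. None of the 5 enzymes of myelin lipids was called by limma (1 at an unadjusted p under 0.05), and Myrf and Sox10, which drive the transcription of myelin genes, were also not called (log2 fold change −0.029 and −0.19). Tf, the iron carrier transferrin made by oligodendrocytes, was at 46.7 and 36.2 FPKM at P14 and 125 and 105 FPKM at P28 (log2 fold change 1.46, SE 0.19, adjusted p = 0.0048), and Apod, a lipocalin, was at 82.8 and 74.2 FPKM at P14 and 175 and 172 FPKM at P28 (log2 fold change 1.14, SE 0.23, adjusted p = 0.0269). Summed over the 28 members, the list amounted to 3921 and 3091 FPKM at P14 and 5942 and 5295 FPKM at P28. In bulk tissue such as this, fewer or more cells of a type and less or more RNA per cell cannot be told apart. Without P28 DH replicate 1 the list had 4 calls, and without each of the other 3 libraries it had 2, all of them higher.

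The promoters of the members called were looked up in RefSeq (build GRCr8) to show the sequence next to the genes that moved together. For 6 of the 8 myelin genes and for 16 of the 21 genes of immature neurons that are described below, the table held the 250 bases before the transcription start. Hapln2 (chr2:175794439-175794688, minus strand) and Mal (chr3:135341424-135341673, minus strand) are shown for the myelin genes that rose, and Neurod1 (chr3:84770455-84770704, minus strand) and Sox11 (chr6:49738795-49739044, minus strand), which code for transcription factors of young neurons, are shown for those that fell. Each sequence runs 5′ to 3′ along the gene and ends just before the start. Capitals mark ACAAAG, the core bound by SOX factors, and GGGCGG, the GC box, on either strand. Mal is the only one of the 6 myelin promoters with a GC box and has their highest GC content (64.8%), and it is shown for the size of its rise.
Hapln2: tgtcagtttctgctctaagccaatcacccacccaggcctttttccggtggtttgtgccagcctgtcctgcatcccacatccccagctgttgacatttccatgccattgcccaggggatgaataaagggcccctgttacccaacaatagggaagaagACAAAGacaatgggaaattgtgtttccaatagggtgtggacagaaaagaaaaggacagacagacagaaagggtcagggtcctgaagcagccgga
Mal: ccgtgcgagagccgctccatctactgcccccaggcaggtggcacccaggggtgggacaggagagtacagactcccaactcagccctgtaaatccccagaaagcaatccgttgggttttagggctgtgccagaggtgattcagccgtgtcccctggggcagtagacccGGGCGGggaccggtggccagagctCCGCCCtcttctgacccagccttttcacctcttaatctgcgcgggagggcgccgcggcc
Neurod1: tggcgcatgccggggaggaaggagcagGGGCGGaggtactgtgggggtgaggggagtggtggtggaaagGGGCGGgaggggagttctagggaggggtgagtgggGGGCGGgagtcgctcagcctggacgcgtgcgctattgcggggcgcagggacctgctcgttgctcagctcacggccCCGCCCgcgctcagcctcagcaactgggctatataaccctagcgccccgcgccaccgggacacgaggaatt
Sox11: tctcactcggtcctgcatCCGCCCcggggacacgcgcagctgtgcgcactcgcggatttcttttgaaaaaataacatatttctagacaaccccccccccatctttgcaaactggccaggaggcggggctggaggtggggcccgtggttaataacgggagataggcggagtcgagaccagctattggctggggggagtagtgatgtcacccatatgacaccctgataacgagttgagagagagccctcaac
The GC box was found in 13 of 17 promoters of the immature neuron genes (76.5%), in 1 of 6 promoters of the myelin genes (16.7%) and in 30.5% of the 33469 promoters in the table. The letters ACAAAG were found in 3 of 17, in 3 of 6 and in 16.3% of them, and the E-box CANNTG was found in 10 of 17, in 6 of 6 and in 65.5%. The median GC content of the 250 bases was 67.6% for the immature neuron genes, 51.6% for the myelin genes and 51.2% for all promoters. These counts describe letters in a window and carry no test, and Dpysl3 has 2 promoters among the 17.

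No marker of the stages before myelination was called higher. Of the 13 markers of oligodendrocyte precursors and premyelinating cells, 0 were higher and 1 was lower, with a median of −0.27. That member was Gpr17, a receptor of cells that are about to myelinate, which was at 75.1 and 58.7 FPKM at P14 and 36.3 and 35.7 FPKM at P28 (log2 fold change −0.86, SE 0.12, adjusted p = 0.00625). Pdgfra, the receptor that defines the precursors, was at 24 and 24.8 FPKM at P14 and 20.9 and 22.1 FPKM at P28 (log2 fold change −0.17, SE 0.068, adjusted p = 0.176), and Enpp6, a marker of newly formed oligodendrocytes, was at 18.7 and 16.8 FPKM at P14 and 13.8 and 12.2 FPKM at P28 (log2 fold change −0.43, SE 0.24, adjusted p = 0.347). Both P28 libraries lay below both P14 libraries for 9 of the 13 markers, against 24.6% of all transcripts.

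Genes of immature neurons had the highest share of calls among the 34 lists, and all of these calls were falls. Of the 28 members measured, 21 were lower and 0 were higher (75%, against 1.98% of all transcripts), with a median of −0.94. This list was drawn up when the fall of several of its members in these libraries was known, so its count is a description. In the role of the cytoskeleton and the growth cone 11 of 12 members fell. Tubb2b, a beta-tubulin of developing neurons, was at 605 and 565 FPKM at P14 and 155 and 158 FPKM at P28 (log2 fold change −1.90, SE 0.066, adjusted p = 4.26e-05), which is the smallest adjusted p among the members of this list. Leaving out 1 of the 4 libraries left between 16 and 18 members called, all lower. Dcx, doublecortin, which binds the microtubules of migrating neuroblasts, was at 27.9 and 27.1 FPKM at P14 and 6.14 and 7.56 FPKM at P28 (log2 fold change −1.87, SE 0.16, adjusted p = 0.00114). Dpysl3 and Dpysl5 code for collapsin response mediator proteins of the growth cone, and Dpysl3 was at 129 and 109 FPKM at P14 and 27.3 and 28.2 FPKM at P28 (log2 fold change −2.05, SE 0.12, adjusted p = 0.000625) while Dpysl5 was at 56.3 and 54.2 FPKM at P14 and 16.8 and 15.8 FPKM at P28 (log2 fold change −1.70, SE 0.10, adjusted p = 0.000625). The duplicates of these 4 genes differed little, and the 2 ages lay far apart.

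Members of this role with a much higher level fell too. Stmn2, a stathmin that destabilises microtubules, was at 803 and 758 FPKM at P14 and 358 and 341 FPKM at P28 (log2 fold change −1.16, SE 0.050, adjusted p = 0.000118). Tuba1a, the main alpha-tubulin of growing neurons, was at 1767 and 1506 FPKM at P14 and 851 and 699 FPKM at P28 (log2 fold change −1.08, SE 0.12, adjusted p = 0.00326), and Gap43, the growth-associated protein, was at 417 and 359.9 FPKM at P14 and 200.02 and 208 FPKM at P28 (log2 fold change −0.92, SE 0.12, adjusted p = 0.00527). Thus these genes were still strongly expressed at P28. The exception in this role was Map1b, a microtubule-associated protein of axons, at 258 and 267 FPKM at P14 and 245 and 269 FPKM at P28, with overlapping groups.

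Among the transcription factors 3 of 7 fell. Sox11 was at 26 and 25.4 FPKM at P14 and 5.72 and 5.9 FPKM at P28 (log2 fold change −1.97, SE 0.15, adjusted p = 0.000729), its relative Sox4 was at 18.9 and 16.5 FPKM at P14 and 8.51 and 8.8 FPKM at P28 (log2 fold change −0.95, SE 0.11, adjusted p = 0.00326), and Neurod1, which is needed for granule cells of the dentate gyrus, was at 64.3 and 68.1 FPKM at P14 and 29.3 and 36.2 FPKM at P28 (log2 fold change −1.0, SE 0.16, adjusted p = 0.0104). Neurod2 and Prox1 were among the factors that were not called. Neurod2 was at 81 and 76 FPKM at P14 and 76.1 and 83.1 FPKM at P28, with overlapping groups. Prox1, the factor of granule cells, was at 33.5 and 36.7 FPKM at P14 and 21.1 and 25 FPKM at P28 (log2 fold change −0.59, SE 0.25, adjusted p = 0.204). For Prox1 both P28 libraries lay below both P14 libraries. Surface and other markers followed the cytoskeleton, with 7 of 9 lower, among them Calb2, which is described below with the calcium-binding proteins. Nrep, a neuronal protein linked to axon regeneration, was at 126 and 115 FPKM at P14 and 27.6 and 28.3 FPKM at P28 (log2 fold change −2.07, SE 0.17, adjusted p = 0.000945), and Igfbpl1, a secreted protein of young granule cells, was at 14.4 and 14.7 FPKM at P14 and 2.77 and 3.4 FPKM at P28 (log2 fold change −1.93, SE 0.15, adjusted p = 0.000852). St8sia2, an enzyme that attaches polysialic acid to the adhesion molecule NCAM, was at 4.04 and 7.23 FPKM at P14 and 0.452 and 0.832 FPKM at P28 (log2 fold change −1.98, SE 0.25, adjusted p = 0.0045), whereas Ncam1 itself was at 179 and 174 FPKM at P14 and 129 and 139.9 FPKM at P28 (log2 fold change −0.39, SE 0.049, adjusted p = 0.00413), below the fold of 1.5. Crabp1, which binds retinoic acid in the cytoplasm, was at 21 and 13.7 FPKM at P14 and 1.9 and 3.27 FPKM at P28 (log2 fold change −2.35, SE 0.45, adjusted p = 0.0216).

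Some genes of the cell cycle fell, most of them from levels of a few FPKM. Of 36 members 9 were lower and 0 higher (25%, against 1.98% of all transcripts called lower), with a median of −0.48, and for 26 of them both P28 libraries lay below both P14 libraries, as for 24.6% of all transcripts. Cdk1, the kinase that starts mitosis, was at 2.77 and 3.48 FPKM at P14 and 1.06 and 0 FPKM at P28 (log2 fold change −1.52, SE 0.34, adjusted p = 0.0355), and Ccna2, cyclin A2, was at 1.14 and 2.15 FPKM at P14 and 0.138 and 0.169 FPKM at P28 (log2 fold change −1.17, SE 0.19, adjusted p = 0.0127). Top2a, the topoisomerase of dividing cells, was at 1.39 and 2.18 FPKM at P14 and 0.564 and 0.479 FPKM at P28 (log2 fold change −0.86, SE 0.13, adjusted p = 0.0088). Mki67, the proliferation marker Ki-67, was at 1.28 and 1.16 FPKM at P14 and 0.684 and 0.682 FPKM at P28 (log2 fold change −0.40, SE 0.086, adjusted p = 0.0331), where the fold stayed under 1.5 on the scale used. Hmgb2, a chromatin protein of progenitors, was at 19.8 and 20.7 FPKM at P14 and 11.2 and 9.97 FPKM at P28 (log2 fold change −0.88, SE 0.17, adjusted p = 0.0223), and the replication factor Pcna was at 29.8 and 27.5 FPKM at P14 and 35.3 and 26.5 FPKM at P28 with overlapping groups. These counts were sensitive to single libraries, with 2 members called without P14 DH replicate 1, P14 DH replicate 2 or P28 DH replicate 1 and 0 without P28 DH replicate 2. Cdk4, which acts in the G1 phase and is also expressed outside dividing cells, was at 43.3 and 38.9 FPKM at P14 and 25.3 and 25.9 FPKM at P28 (log2 fold change −0.66, SE 0.11, adjusted p = 0.0137).

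Among 20 regulators of chromatin and RNA, 0 were higher and 1 was lower, with a median of −0.18. This was Dnmt3a, the de novo DNA methyltransferase, whose main transcript was at 28.6 and 29.7 FPKM at P14 and 9.76 and 10.7 FPKM at P28 (log2 fold change −1.43, SE 0.090, adjusted p = 0.000693). The maintenance methyltransferase Dnmt1 was at 10.7 and 12 FPKM at P14 and 8.84 and 9.15 FPKM at P28 (log2 fold change −0.31, SE 0.12, adjusted p = 0.175). The fall of the Dnmt3a transcript was therefore not accompanied by a call for Dnmt1.

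**Figure D2:**
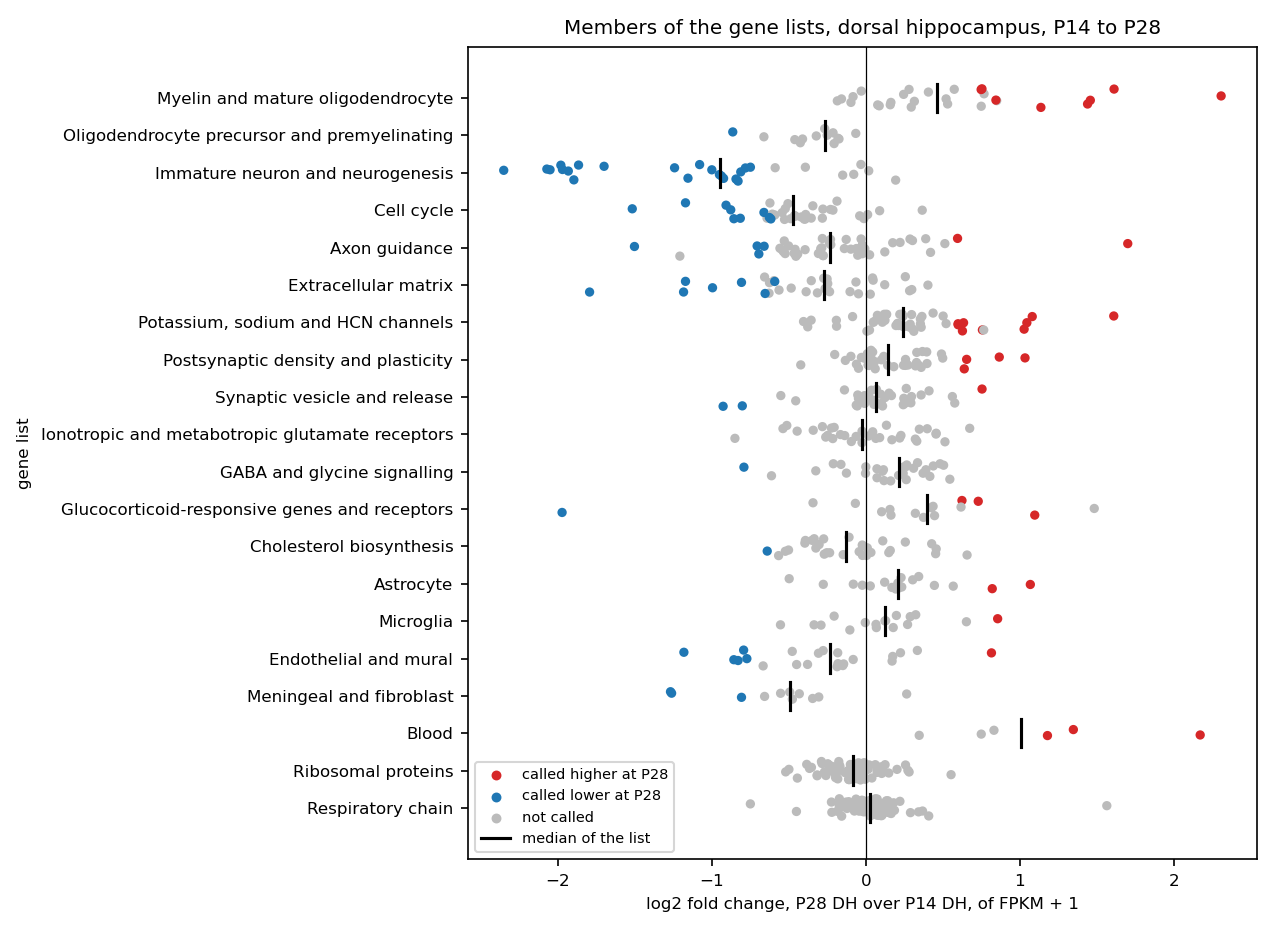
Log2 fold change between P14 and P28 in the DH (horizontal axis, on the scale of FPKM + 1) for the members of 20 of the gene lists, 1 point per gene, with members called higher in red, members called lower in blue and the median of the list as a black bar. The list of immature neuron genes lies to the left with a median of −0.94, the myelin list to the right with a median of 0.46, and the ribosomal proteins and the respiratory chain lie around 0.

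Some guidance cues and receptors changed, in both directions. Of 46 members, 2 were higher (4.35%, against 1.51% of all transcripts) and 4 were lower (8.7%, against 1.98%), with a median of −0.23. Robo3, a receptor of the Roundabout family, was at 0.763 and 0.777 FPKM at P14 and 5.78 and 3.89 FPKM at P28 (log2 fold change 1.70, SE 0.17, adjusted p = 0.0019), and Ephb6, an Eph receptor without kinase activity, was at 21.1 and 21 FPKM at P14 and 32.9 and 31.7 FPKM at P28 (log2 fold change 0.60, SE 0.10, adjusted p = 0.0151). The secreted semaphorin Sema3c was at 109.6 and 95.1 FPKM at P14 and 33.4 and 37.4 FPKM at P28 (log2 fold change −1.50, SE 0.24, adjusted p = 0.0115). Its fall came with those of the plexin receptors Plxna3 (log2 fold change −0.70, adjusted p = 0.0306) and Plxnd1 (−0.66, adjusted p = 0.0489) and of the receptor Ephb2, which was at 32.3 and 30.7 FPKM at P14 and 18.2 and 19.6 FPKM at P28 (log2 fold change −0.71, SE 0.11, adjusted p = 0.0096). Slit2, a ligand of the Robo receptors, was at 9.32 and 9.5 FPKM at P14 and 8.75 and 8.71 FPKM at P28, and Robo1, at 36.8 and 36.2 FPKM at P14 and 26.7 and 25.6 FPKM at P28 (log2 fold change −0.47, SE 0.077, adjusted p = 0.0126), stayed under the fold of 1.5. Of the netrin and slit systems only Robo3 was called among 14 members. In the whole list 0 members were lower without P14 DH replicate 1 and 1 without each of the other 3 libraries, and 1 was higher in each of these fits.

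Some genes of the extracellular matrix fell, with 7 of 33 members lower (21.2%, against 1.98% of all transcripts), 0 higher and a median of −0.27. Tnc, tenascin-C, a glycoprotein of the developing brain, was at 6.17 and 6.32 FPKM at P14 and 1.32 and 0.876 FPKM at P28 (log2 fold change −1.80, SE 0.17, adjusted p = 0.00154). Nid2, a nidogen of basement membranes, was at 4.44 and 4.57 FPKM at P14 and 1.55 and 1.34 FPKM at P28 (log2 fold change −1.17, SE 0.12, adjusted p = 0.00242), and Col4a1, the basement membrane collagen of vessels, was at 26.6 and 27.4 FPKM at P14 and 14 and 12.1 FPKM at P28 (log2 fold change −1.0, SE 0.11, adjusted p = 0.00275). The lectican Vcan was at 10.7 and 8.35 FPKM at P14 and 5.16 and 6.17 FPKM at P28 (log2 fold change −0.65, SE 0.13, adjusted p = 0.0248), Postn, periostin, was at 1.94 and 1.49 FPKM at P14 and 0.209 and 0.171 FPKM at P28 (log2 fold change −1.18, SE 0.18, adjusted p = 0.00866), and Fbn2, a fibrillin of developing tissue, was at 0.616 and 0.646 FPKM at P14 and 0.0736 and 0.0903 FPKM at P28 (log2 fold change −0.59, SE 0.048, adjusted p = 0.000923). Of the 9 lecticans and perineuronal net components tested, only Vcan was called. Acan, aggrecan, was at 0.898 and 1.01 FPKM at P14 and 1.04 and 1.77 FPKM at P28, and Bcan, brevican, was at 129 and 129 FPKM at P14 and 120.4 and 96.3 FPKM at P28, while Ncan, Hapln4 and the collagen gene Col1a2 were listed at 0 in all 12 libraries. A listed 0 need not mean absence, since of 79 genes of ribosomal proteins, which every cell uses, only 74 were above 0 in at least 2 libraries. Col1a1, the collagen of fibroblasts, was at 4.72 and 5.63 FPKM at P14 and 2.8 and 2.26 FPKM at P28 (log2 fold change −0.81, SE 0.14, adjusted p = 0.0152). Col1a1 is also a member of the list of meningeal and fibroblast markers, which shares its collagen genes with the matrix list. In the meningeal list 3 of 11 were lower (Igf2, Col1a1 and Islr), where 1.98% of all transcripts were. For 9 of 11 both P28 libraries lay below both P14 libraries, as for 24.6% of all transcripts. The summed level of this list was 69.2 and 73.7 FPKM at P14 and 47.3 and 48.6 FPKM at P28. The vascular markers, described below, also had lower summed levels at P28 (352 and 350.1 FPKM at P14 and 285 and 246 FPKM at P28), and Nid2 and Col4a1 are genes of basement membranes. The part of both lists in the fall of the matrix genes was not tested. The 7 matrix calls became 4 without P14 DH replicate 1 or P28 DH replicate 2, and the 3 meningeal calls became 1 without either P14 DH library or P28 DH replicate 2.

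A part of the channel subunits rose. Of the 48 potassium, sodium and HCN channel subunits, 9 were higher and 0 lower (18.8%, against 1.51% of all transcripts called higher), with a median of 0.24. The largest change in this group was that of an auxiliary subunit of sodium channels. Scn4b, the beta-4 subunit that supports resurgent current, was at 4.11 and 3.81 FPKM at P14 and 16.1 and 12.4 FPKM at P28 (log2 fold change 1.61, SE 0.17, adjusted p = 0.00247). Scn2b, another auxiliary subunit, was at 130.5 and 133 FPKM at P14 and 187 and 214 FPKM at P28 (log2 fold change 0.60, SE 0.073, adjusted p = 0.00377). In total 3 of the 9 sodium channel subunits were called. Among the pore-forming ones Scn1a, at 11.7 and 13.9 FPKM at P14 and 15.9 and 17.4 FPKM at P28, Scn2a, at 79.9 and 76.7 FPKM at P14 and 75.4 and 84.1 FPKM at P28, and Scn8a, at 72 and 74.2 FPKM at P14 and 82.5 and 88.3 FPKM at P28, were not called.

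Of the 35 potassium channel subunits 6 were higher, 3 of them beta subunits and 3 pore-forming ones. All 3 beta subunits of the Kv1 family rose. Kcnab1 was at 41.3 and 49.2 FPKM at P14 and 97.2 and 95.9 FPKM at P28 (log2 fold change 1.08, SE 0.078, adjusted p = 0.000729), Kcnab2 was at 322 and 339.5 FPKM at P14 and 539.6 and 489.5 FPKM at P28 (log2 fold change 0.64, SE 0.10, adjusted p = 0.00974), and Kcnab3 was at 2.42 and 3.23 FPKM at P14 and 7.31 and 6.42 FPKM at P28 (log2 fold change 1.05, SE 0.20, adjusted p = 0.0231). Among the pore-forming Kv1 subunits Kcna4 was at 7.83 and 6.76 FPKM at P14 and 11.7 and 14.4 FPKM at P28 (log2 fold change 0.76, SE 0.17, adjusted p = 0.0364), while Kcna1, at 51.8 and 53.9 FPKM at P14 and 57.4 and 70.4 FPKM at P28, and Kcna2, at 17.8 and 21.2 FPKM at P14 and 24.4 and 31.9 FPKM at P28, did not pass the threshold though both P28 libraries were higher. Kcnj3 and Kcnj6, which form G protein-gated inward rectifiers, also rose (log2 fold change 0.60, adjusted p = 0.0283, and log2 fold change 0.63, adjusted p = 0.020). Kcnc1, the Kv3.1 channel of fast-spiking cells, was at 21.9 and 24.5 FPKM at P14 and 33.5 and 34 FPKM at P28 (log2 fold change 0.52, SE 0.088, adjusted p = 0.0137), below the fold of 1.5. Without P14 DH replicate 2 the list of 48 had 6 calls, and without each of the other 3 libraries it had 4. None of the 4 HCN subunits was called (1 at an unadjusted p under 0.05).

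On the presynaptic side of the synapse 1 of 41 members was higher (2.44%, against 1.51% of all transcripts) and 2 were lower (4.88%, against 1.98%), with a median of 0.064. Snap25, the SNARE protein of the presynaptic membrane, was at 613 and 647 FPKM at P14 and 1012 and 1118 FPKM at P28 (log2 fold change 0.76, SE 0.066, adjusted p = 0.00114). Unc13c, a priming factor, was at 4.6 and 3.86 FPKM at P14 and 1.76 and 1.73 FPKM at P28 (log2 fold change −0.93, SE 0.13, adjusted p = 0.00762), and Slc17a6, the vesicular glutamate transporter VGLUT2 of thalamic and other subcortical terminals, was at 9.41 and 8.5 FPKM at P14 and 5.11 and 4.32 FPKM at P28 (log2 fold change −0.80, SE 0.13, adjusted p = 0.0108). The transporter of cortical and hippocampal neurons, Slc17a7, was at 1183 and 1165 FPKM at P14 and 1187 and 1197 FPKM at P28 (log2 fold change 0.022, SE 0.055, adjusted p = 0.88). Slc17a6 is also among the 8 thalamic markers, whose summed level was 47.9 and 45 FPKM at P14 and 36.1 and 32.7 FPKM at P28, and their part in its fall was not tested.

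In the postsynaptic density 4 of 39 members were higher (10.3%, against 1.51% of all transcripts) and 0 lower, with a median of 0.14, and all 4 were in the role of kinases, phosphatases and cyclases. Rgs14, a regulator of G protein signalling found in CA2, was at 37.6 and 36.5 FPKM at P14 and 79.3 and 74.7 FPKM at P28 (log2 fold change 1.03, SE 0.093, adjusted p = 0.00125). Ppp1r1b, the phosphatase inhibitor DARPP-32, was at 22.8 and 21.5 FPKM at P14 and 42.8 and 39.7 FPKM at P28 (log2 fold change 0.87, SE 0.090, adjusted p = 0.00216), Camkk1, a kinase upstream of calcium/calmodulin-dependent kinases, was at 85.8 and 88.5 FPKM at P14 and 135 and 141 FPKM at P28 (log2 fold change 0.66, SE 0.10, adjusted p = 0.00909), and Camk2n1, an inhibitor of CaMKII, was at 773 and 827 FPKM at P14 and 1209.8 and 1284 FPKM at P28 (log2 fold change 0.64, SE 0.065, adjusted p = 0.00198). Camk2a, the alpha subunit of CaMKII, was at 1619 and 1647 FPKM at P14 and 2186 and 2032 FPKM at P28 (log2 fold change 0.37, SE 0.074, adjusted p = 0.026), a change that passed the adjusted p but not the fold. None of the 16 scaffolds was called by limma (3 at an unadjusted p under 0.05), and Dlg4, which codes for PSD-95, was at 398 and 409.5 FPKM at P14 and 427 and 391 FPKM at P28 with overlapping groups.

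Taken by the most abundant transcript of each gene, receptors of the main transmitters gave 1 call. None of 33 genes of glutamate receptors was called by limma on that transcript (median −0.025), and 12 had an unadjusted p under 0.05. Less abundant transcripts of Gria2 and Gria3, described below, were called higher. Gria1 was at 245 and 265 FPKM at P14 and 306 and 336 FPKM at P28 (log2 fold change 0.33, SE 0.083, adjusted p = 0.0526), Grin2a at 50.1 and 58.8 FPKM at P14 and 71.6 and 78.4 FPKM at P28 (log2 fold change 0.46, SE 0.18, adjusted p = 0.18) and Grin2b at 24.1 and 31 FPKM at P14 and 23.8 and 32.1 FPKM at P28 (log2 fold change 0.018, SE 0.21, adjusted p = 0.997). Grin2a and Grin2b code for GluN2A and GluN2B, NMDA receptor subunits that exchange places during development. Both P28 libraries lay above both P14 libraries for Grin2a, as for 26.2% of all transcripts, and the groups overlapped for Grin2b. The difference between these subunits was not tested. Among 29 genes of GABA and glycine signalling 0 were higher and 1 was lower (median 0.21). This was Glra2, the fetal alpha subunit of the glycine receptor, at 16.6 and 18.1 FPKM at P14 and 8.33 and 11 FPKM at P28 (log2 fold change −0.79, SE 0.17, adjusted p = 0.0332). Both P28 libraries were above both P14 libraries for 12 of the 15 GABA-A subunits, against 26.2% of all transcripts. Slc12a5, the chloride exporter KCC2, was at 82.5 and 88.1 FPKM at P14 and 113 and 115 FPKM at P28 (log2 fold change 0.42, SE 0.064, adjusted p = 0.00974), under the fold of 1.5, and the importer Slc12a2 was at 20.05 and 17.4 FPKM at P14 and 22.2 and 23 FPKM at P28.

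Calcium-binding proteins gave 3 calls and interneuron markers 1. Of 29 calcium channel subunits and binding proteins 2 were higher (6.9%, against 1.51% of all transcripts) and 1 was lower (3.45%, against 1.98%; median 0.18). Hpca, hippocalcin, the calcium sensor of pyramidal cells, was at 1172 and 1188 FPKM at P14 and 2070.3 and 1804 FPKM at P28 (log2 fold change 0.71, SE 0.088, adjusted p = 0.00412). Pvalb, parvalbumin, which marks fast-spiking basket cells, was at 104 and 87.3 FPKM at P14 and 162 and 131 FPKM at P28 (log2 fold change 0.61, SE 0.11, adjusted p = 0.0195) and was the only one of 15 interneuron markers that was called. Calb2, calretinin, also marks interneurons, and immature granule cells as well. It was counted with the calcium-binding proteins and with the surface and other markers of immature neurons, but not among the 15 interneuron markers. It was called lower, at 17.2 and 26.8 FPKM at P14 and 13 and 8.89 FPKM at P28 (log2 fold change −0.94, SE 0.23, adjusted p = 0.0468). This call is part of the counts of both lists. Sst, somatostatin, was at 92.3 and 131 FPKM at P14 and 123 and 117 FPKM at P28 with overlapping groups, Reln, reelin, was at 12.1 and 13.3 FPKM at P14 and 7.26 and 8.83 FPKM at P28 (log2 fold change −0.60, SE 0.15, adjusted p = 0.0548), and Gad1, which makes GABA, was at 74.1 and 70.2 FPKM at P14 and 85.9 and 102 FPKM at P28 (log2 fold change 0.37, SE 0.11, adjusted p = 0.086).

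Among 39 neuropeptides and their receptors 2 were higher and 2 lower (5.13% each, against 1.51% and 1.98% of all transcripts; median 0.034). Penk, proenkephalin, was at 6.11 and 9.04 FPKM at P14 and 14.8 and 17.8 FPKM at P28 (log2 fold change 1.03, SE 0.18, adjusted p = 0.0147), and Adcyap1, the peptide PACAP, was at 3.93 and 5.33 FPKM at P14 and 9.65 and 8.21 FPKM at P28 (log2 fold change 0.82, SE 0.19, adjusted p = 0.0378). The receptor of corticotropin-releasing hormone, Crhr1, was at 3.3 and 4.75 FPKM at P14 and 1.99 and 2.2 FPKM at P28 (log2 fold change −0.68, SE 0.15, adjusted p = 0.038), and the neurotensin receptor Ntsr1 was at 1.15 and 0.925 FPKM at P14 and 0.355 and 0.29 FPKM at P28 (log2 fold change −0.62, SE 0.088, adjusted p = 0.00762). Adra1d, an alpha-1 adrenoceptor, was the only one of 32 receptors for serotonin, acetylcholine, noradrenaline and dopamine that was called, and it was at 12.2 and 16.4 FPKM at P14 and 41.2 and 34.6 FPKM at P28 (log2 fold change 1.36, SE 0.14, adjusted p = 0.00211). Htr1a was at 29.9 and 32.9 FPKM at P14 and 35.7 and 38.8 FPKM at P28 and Chrm1, the M1 muscarinic receptor, at 62.7 and 70.5 FPKM at P14 and 88.9 and 88.7 FPKM at P28 (log2 fold change 0.41, SE 0.059, adjusted p = 0.00778). Of 29 immediate early genes, which neuronal activity induces, only Ptgs2, cyclooxygenase-2, was called. It was at 26.7 and 27 FPKM at P14 and 41.7 and 43.3 FPKM at P28 (log2 fold change 0.64, SE 0.11, adjusted p = 0.0162), whereas Arc was at 26.2 and 28.3 FPKM at P14 and 38.5 and 33.2 FPKM at P28, Fos at 4.77 and 6.41 FPKM at P14 and 4.5 and 5.15 FPKM at P28 and Egr1 at 37 and 36.6 FPKM at P14 and 49.6 and 45.3 FPKM at P28, with overlapping groups for Fos alone.

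A few hormone-responsive genes rose. Of 16 glucocorticoid receptors and responsive genes 3 were higher and 1 was lower, with a median of 0.40, and for 12 of the 16 both P28 libraries lay above both P14 libraries. Over all transcripts 1.51% were called higher and 26.2% lay above in this way. The 3 higher calls became 0 without P14 DH replicate 1, 2 without P28 DH replicate 1 and 1 without P28 DH replicate 2. Fkbp5, a co-chaperone of the glucocorticoid receptor that its ligand induces, was at 22.2 and 27.4 FPKM at P14 and 43.1 and 40.04 FPKM at P28 (log2 fold change 0.73, SE 0.10, adjusted p = 0.00527). Zbtb16, a transcription factor, was at 15.7 and 17.6 FPKM at P14 and 25.5 and 26.9 FPKM at P28 (log2 fold change 0.62, SE 0.10, adjusted p = 0.012), and Sult1a1, a sulfotransferase, was at 3.39 and 4.88 FPKM at P14 and 9.22 and 10.6 FPKM at P28 (log2 fold change 1.10, SE 0.23, adjusted p = 0.0295). The receptors were not called, with Nr3c1 at 17.7 and 18.7 FPKM at P14 and 20.6 and 18.7 FPKM at P28 and Nr3c2 at 46.5 and 47.1 FPKM at P14 and 58.2 and 59.2 FPKM at P28 (log2 fold change 0.32, SE 0.062, adjusted p = 0.0215). Lcn2, a lipocalin that binds siderophores, was the member that fell, and it was at 3.41 and 3.83 FPKM at P14 and 0 and 0.383 FPKM at P28 (log2 fold change −1.97, SE 0.20, adjusted p = 0.00194). Of 10 genes of thyroid hormone transport and response, Slco1c1, a thyroxine transporter of the blood-brain barrier, was the only call, at 60.2 and 64.1 FPKM at P14 and 41.4 and 37.8 FPKM at P28 (log2 fold change −0.64, SE 0.077, adjusted p = 0.00367) (list median −0.40).

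Growth factors and their receptors gave single calls, and the largest fall of all transcripts was that of a secreted ligand. This ligand, Bmp4, a bone morphogenetic protein, was at 10.5 and 11 FPKM at P14 and 0.312 and 0.766 FPKM at P28 (log2 fold change −2.95, SE 0.34, adjusted p = 0.00326). The level at P45 was 6.29 and 9.97 FPKM, so that the P28 libraries were the lowest of the 3 ages (log2 fold change from P28 to P45 2.55, adjusted p = 0.12). Of the 27 members of the list of growth factors and neurotrophins, which does not hold Bmp4, 1 was higher and 2 were lower (median −0.12). Igf2, an insulin-like growth factor that the meninges and the choroid plexus express, was at 16.6 and 19.7 FPKM at P14 and 8.12 and 5.87 FPKM at P28 (log2 fold change −1.27, SE 0.17, adjusted p = 0.0056), and Pdgfb, the platelet-derived growth factor of endothelium and neurons, was at 21.8 and 24.5 FPKM at P14 and 15.5 and 12.9 FPKM at P28 (log2 fold change −0.67, SE 0.13, adjusted p = 0.0249). Igf1 was at 5.76 and 5.21 FPKM at P14 and 2.05 and 4.08 FPKM at P28 (log2 fold change −0.72, SE 0.38, adjusted p = 0.31), and the main transcript of Bdnf was at 6.91 and 6.41 FPKM at P14 and 5.47 and 9.98 FPKM at P28 with overlapping groups.

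Metabolic genes gave 1 call in each of 2 lists, shares that are not far from the 1.98% of all transcripts called lower. In cholesterol biosynthesis 1 of 30 members was called (3.33%), Idi1, an isomerase of the mevalonate pathway, at 44.7 and 39.4 FPKM at P14 and 26.7 and 26.4 FPKM at P28 (log2 fold change −0.64, SE 0.14, adjusted p = 0.0309). The synthase Hmgcs1 was at 269.6 and 234 FPKM at P14 and 173 and 176 FPKM at P28 (log2 fold change −0.52, SE 0.085, adjusted p = 0.0122), past the adjusted p and under the fold. For 7 of the 8 genes of the mevalonate steps both P28 libraries lay below both P14 libraries, against 24.6% of all transcripts. Apoe, the lipid carrier of astrocytes, was at 1921 and 1978 FPKM at P14 and 2854 and 2512 FPKM at P28 (log2 fold change 0.46, SE 0.086, adjusted p = 0.020), and Cyp46a1, which removes cholesterol from neurons, was at 71.9 and 76.1 FPKM at P14 and 100.4 and 99.3 FPKM at P28 (log2 fold change 0.43, SE 0.047, adjusted p = 0.0025). Of 21 genes of glycolysis and lactate 1 was called (4.76%). Slc16a1, the monocarboxylate transporter MCT1 of vessels and glia, was at 50.1 and 49.9 FPKM at P14 and 24.1 and 22.9 FPKM at P28 (log2 fold change −1.06, SE 0.090, adjusted p = 0.000975). Of 78 genes of the respiratory chain and 74 of ribosomal proteins none was called by limma, with medians of 0.027 and −0.081 and with 10 and 20 members at an unadjusted p under 0.05. Of 16 genes of neurofilaments and the mature cytoskeleton, the tubulins Tubb2a (log2 fold change −0.60, adjusted p = 0.00473) and Tubb6 (−1.11, adjusted p = 0.0109) fell, and Nefl, the light neurofilament, was at 582 and 677 FPKM at P14 and 595 and 667 FPKM at P28.

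Other cell types were followed through their markers. Of 18 astrocyte markers 2 were higher (11.1%, against 1.51% of all transcripts), with a median of 0.21. Gjb6, connexin 30, was at 11.5 and 14.9 FPKM at P14 and 31.8 and 25.6 FPKM at P28 (log2 fold change 1.07, SE 0.21, adjusted p = 0.0246) and S100b was at 518 and 585 FPKM at P14 and 1037 and 914 FPKM at P28 (log2 fold change 0.82, SE 0.093, adjusted p = 0.00288), while Gfap was at 314 and 349 FPKM at P14 and 292 and 256 FPKM at P28 (log2 fold change −0.28, SE 0.14, adjusted p = 0.289). Of 17 microglia markers Ctss, a lysosomal cathepsin, was the only call (5.88% of the list), at 43.4 and 52.7 FPKM at P14 and 100.4 and 76.1 FPKM at P28 (log2 fold change 0.86, SE 0.17, adjusted p = 0.0246), and the microglial receptors Cx3cr1 (20.3 and 16.6 FPKM at P14 and 16.9 and 14.8 FPKM at P28) and P2ry12 (22.6 and 22 FPKM at P14 and 22.7 and 13.4 FPKM at P28) had overlapping groups. None of 24 genes of antigen presentation and interferon was called by limma, and 6 had an unadjusted p under 0.05.

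Some vascular markers fell, and haemoglobin genes rose. Of 22 markers of endothelial and mural cells 5 were lower (22.7%, against 1.98% of all transcripts) and 1 was higher (4.55%, against 1.51%; median −0.23). The 5 became 3 without either P14 DH library or P28 DH replicate 2, and the 1 higher was not called without P14 DH replicate 1. Kdr, the VEGF receptor 2, was at 5.9 and 6.15 FPKM at P14 and 2.23 and 1.97 FPKM at P28 (log2 fold change −1.18, SE 0.12, adjusted p = 0.00174), and Cldn5, the tight junction protein claudin-5, was at 88.7 and 89.5 FPKM at P14 and 51.5 and 46.1 FPKM at P28 (log2 fold change −0.86, SE 0.093, adjusted p = 0.00247). Tie1 and Esam of the endothelium and Rgs5 of pericytes also fell, by 0.83, 0.79 and 0.77 on the log2 scale. Slco1a4, an organic anion transporter of the blood-brain barrier, was at 6.53 and 6.97 FPKM at P14 and 14.1 and 11.4 FPKM at P28 (log2 fold change 0.82, SE 0.12, adjusted p = 0.00863), and Pecam1, a general endothelial marker, was at 8.37 and 7.31 FPKM at P14 and 7.35 and 6.19 FPKM at P28 with overlapping groups. The summed level of the vascular markers was 352 and 350.1 FPKM at P14 and 285 and 246 FPKM at P28. Of 6 red cell markers measured 3 were higher, where 1.51% of all transcripts were. The haemoglobin chain Hbb was at 243 and 386 FPKM at P14 and 633 and 763 FPKM at P28 (log2 fold change 1.18, SE 0.29, adjusted p = 0.0488), Hba2 was at 95.4 and 169 FPKM at P14 and 289 and 367 FPKM at P28 (log2 fold change 1.35, SE 0.29, adjusted p = 0.0319) and Hbb-b1 was at 26.6 and 15.4 FPKM at P14 and 86.9 and 104 FPKM at P28 (log2 fold change 2.17, SE 0.41, adjusted p = 0.020). The red cell markers summed to 614 and 989 FPKM at P14 and 1425 and 2033 FPKM at P28, and the share of blood in the tissue was not tested as a part of the results. Without P14 DH replicate 2 only 1 of the red cell markers was called, and without each of the other 3 libraries none was. Haemoglobin genes are near-identical copies, and the split of reads between them is uncertain.

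Signs of uneven dissection were looked for in the markers of the subfields and of neighbouring tissue. Of 29 subfield markers only Rgs14 was called. The CA1 markers summed to 217 and 196 FPKM at P14 and 398 and 281 FPKM at P28, mainly through Wfs1, which was at 127 and 114 FPKM at P14 and 267 and 177 FPKM at P28 (log2 fold change 0.85, SE 0.41, adjusted p = 0.275). The dentate gyrus markers summed to 268 and 319 FPKM at P14 and 313 and 399 FPKM at P28, so that the P28 library with more CA1 signal was the one with less dentate signal. The part of these differences in the results was not tested. Ttr, the transthyretin of the choroid plexus, was at 3.45 and 10.04 FPKM at P14 and 1.69 and 0.519 FPKM at P28, and Otx2, its defining transcription factor, was listed at 0 in these 4 libraries, with the limit on listed zeros given for the matrix genes. The 8 cortical markers, of which none was called by limma (2 at an unadjusted p under 0.05), summed to 66.3 and 68.2 FPKM at P14 and 87.6 and 99.8 FPKM at P28, so that both P28 libraries were higher. The 8 thalamic markers summed to 47.9 and 45 FPKM at P14 and 36.1 and 32.7 FPKM at P28, and 1 of them, Slc17a6, was called lower, as given above. The part of these shifts in the results was not tested either.

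Several of the largest changes concerned genes outside the lists. Klk6, a serine protease of oligodendrocytes, was at 3.59 and 3.12 FPKM at P14 and 19.7 and 16.3 FPKM at P28 (log2 fold change 2.12, SE 0.24, adjusted p = 0.0028), and Gpd1, the cytosolic glycerol-3-phosphate dehydrogenase, was at 19.1 and 23.3 FPKM at P14 and 83.9 and 72.4 FPKM at P28 (log2 fold change 1.83, SE 0.21, adjusted p = 0.0028). Tmem88b, a transmembrane protein, was at 4.99 and 4.94 FPKM at P14 and 19.2 and 16.7 FPKM at P28 (log2 fold change 1.66, SE 0.24, adjusted p = 0.00782), Cryab, the small heat shock protein alpha-B crystallin, was at 9.47 and 5.53 FPKM at P14 and 16.7 and 30.4 FPKM at P28 (log2 fold change 1.51, SE 0.32, adjusted p = 0.0301), and Paqr6, a membrane receptor of the progestin and adipoQ family, was at 1.13 and 2.49 FPKM at P14 and 7.95 and 5.74 FPKM at P28 (log2 fold change 1.51, SE 0.26, adjusted p = 0.0142). Ppl, the cytolinker periplakin, was at 2.4 and 2.18 FPKM at P14 and 6.95 and 10.02 FPKM at P28 (log2 fold change 1.51, SE 0.25, adjusted p = 0.0128). Low-level transcripts made up the rest of the 15 largest rises. They were Cd3e, a chain of the T cell receptor complex, at 0.522 and 1.66 FPKM at P14 and 8.87 and 4.04 FPKM at P28, the class I histocompatibility gene RT1-M6-2 at 1.08 and 0.861 FPKM at P14 and 3.93 and 6.12 FPKM at P28, the uncharacterised LOC367195 at 0.569 and 0 FPKM at P14 and 3.44 and 2.11 FPKM at P28 and the histone gene Hist1h2an at 0 and 0.663 FPKM at P14 and 2.44 and 3.0 FPKM at P28, with adjusted p of 0.038, 0.0117, 0.0399 and 0.039. Reads of histocompatibility and histone genes can be shared between near-identical copies, so these values are uncertain.

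Among the falls outside the lists, Adamts18, a secreted metalloprotease, was at 2.9 and 3.62 FPKM at P14 and 0.058 and 0.142 FPKM at P28 (log2 fold change −1.95, SE 0.12, adjusted p = 0.000641), and Serpinf1, the pigment epithelium-derived factor, was at 15.7 and 23.2 FPKM at P14 and 5.16 and 3.59 FPKM at P28 (log2 fold change −1.92, SE 0.30, adjusted p = 0.0106). S100a11, a calcium-binding protein, was at 4.17 and 3.54 FPKM at P14 and was listed at 0 in both P28 libraries and in both P45 DH libraries (adjusted p = 0.00154). The first transcript of Cthrc1, a secreted protein with a collagen repeat, was at 3.26 and 4.39 FPKM at P14 and close to 0 in both P28 libraries (adjusted p = 0.000974). Its other transcript behaved the other way, from close to 0 at P14 to 0.43 and 0.527 FPKM at P28. Summed over both, Cthrc1 fell by 1.70 on the log2 scale (adjusted p = 0.00103).

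Where a gene has several transcripts, the authors' software divided the reads between them, and a change of 1 transcript need not be a change of the gene. This applied to 37 of the 499 calls, and for 15 of the 37 the summed FPKM of the symbol was called in the same direction. The following genes were chosen after their values were seen. Mbp has 6 transcripts in the table. The main one, NM_017026, was higher in both P28 libraries, as given above, while NM_001025294 was at 189 and 170.3 FPKM at P14 and 76.5 and 50.3 FPKM at P28 (log2 fold change −1.52, SE 0.23, adjusted p = 0.00974), and the sum over all 6 did not pass (log2 fold change 0.33, adjusted p = 0.405). Gria2, which codes for the AMPA receptor subunit GluA2, had NM_001083811 at 58.3 and 57.3 FPKM at P14 and 98.3 and 121 FPKM at P28 (log2 fold change 0.90, SE 0.11, adjusted p = 0.00391) and NM_017261 at 144 and 137 FPKM at P14 and 126 and 129 FPKM at P28. For Gria3, NM_001112742 was at 4.6 and 3.24 FPKM at P14 and 12.8 and 11.5 FPKM at P28 (log2 fold change 1.43, SE 0.22, adjusted p = 0.00901) and NM_032990 at 48.7 and 48.5 FPKM at P14 and 64.1 and 70.1 FPKM at P28 (log2 fold change 0.46, SE 0.11, adjusted p = 0.0449). In both genes the called transcript was the less abundant one, and for Gria3 the abundant one also lay above P14 in both P28 libraries and passed the adjusted p, under the fold of 1.5. Nfasc, which organises the axon initial segment and the node, had NM_053909 at 30.3 and 28.8 FPKM at P14 and 16.4 and 13.9 FPKM at P28 (log2 fold change −0.92, SE 0.11, adjusted p = 0.00359) and NM_001160314 at 28.2 and 27.3 FPKM at P14 and 35.5 and 33.8 FPKM at P28 (log2 fold change 0.31, SE 0.073, adjusted p = 0.0441). The transcript most abundant at P14, NM_001160315, was at 46.7 and 38.5 FPKM at P14 and 25.9 and 21.4 FPKM at P28 (log2 fold change −0.82, SE 0.24, adjusted p = 0.0851), and the sum over the symbol was lower at P28 (log2 fold change −0.44, adjusted p = 0.0347), under the fold of 1.5. Aplp2, a relative of the amyloid precursor protein, had NM_022520 at 32.3 and 27.4 FPKM at P14 and 11.9 and 8.64 FPKM at P28 (log2 fold change −1.47, SE 0.29, adjusted p = 0.0251) beside the abundant NM_012906 at 195 and 208 FPKM at P14 and 237 and 244 FPKM at P28 (log2 fold change 0.25, SE 0.054, adjusted p = 0.0322).

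The same step was examined in the VH to ask whether the changes were particular to the DH. The labels do not say whether the DH and VH libraries of 1 age came from the same animals. In the fit all libraries were taken as independent. In the VH 183 transcripts (1.28%) were higher and 160 (1.12%) lower at P28 than at P14. Over all 14259 transcripts the median log2 fold change in the VH was 0, and the shares of all transcripts with each sign were not counted. A batch that goes with age may be common to both regions, and its part in their agreement was not tested. Of the 216 transcripts that rose in the DH, 198 (91.7%) had a positive fold change in the VH and 89 were called higher there, which is 41.2% of the DH calls and 48.6% of the VH calls. The transporter gene Slc19a3 was the 1 of the 216 that was called lower in the VH. Of the 283 that fell, 271 (95.8%) had a negative fold change in the VH and 99 were called lower, which is 35% of the DH calls and 61.9% of the VH calls. The 216 were chosen for their DH values, and their median was 0.82 in the DH and 0.55 in the VH, while that of the 283 was −0.81 in the DH and −0.54 in the VH. A test of the difference between the regions, the interaction of age and region, gave 2 transcripts at an adjusted p under 0.05 (0.014% of 14259, with 932 at an unadjusted p under 0.05), and neither was among the 499. At an unadjusted interaction p under 0.05 stood 78 of the 216 and 96 of the 283, and since the interaction contains the DH change by which they were chosen, these counts are a description. The count of 2 at an adjusted p became 5 without P14 DH replicate 1, 9 without P14 DH replicate 2, 7 without P28 DH replicate 1, 8 without P14 VH replicate 1, 8 without P28 VH replicate 1 and 9 without P28 VH replicate 2. It was 0 with the replicate number as a block (970 at an unadjusted p under 0.05), with FPKM summed per symbol (844) and with only the libraries compared (921), so neither call held in these settings. A mean of at least 1 FPKM also gave 0 (680). This filter takes out transcripts at very low levels before the test, among them the second transcript of Cthrc1, described below. Tnp2, the other call, was also under 1 FPKM in all libraries of P14 and P28. The 0 therefore says nothing about calls at such levels.

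**Figure D3:**
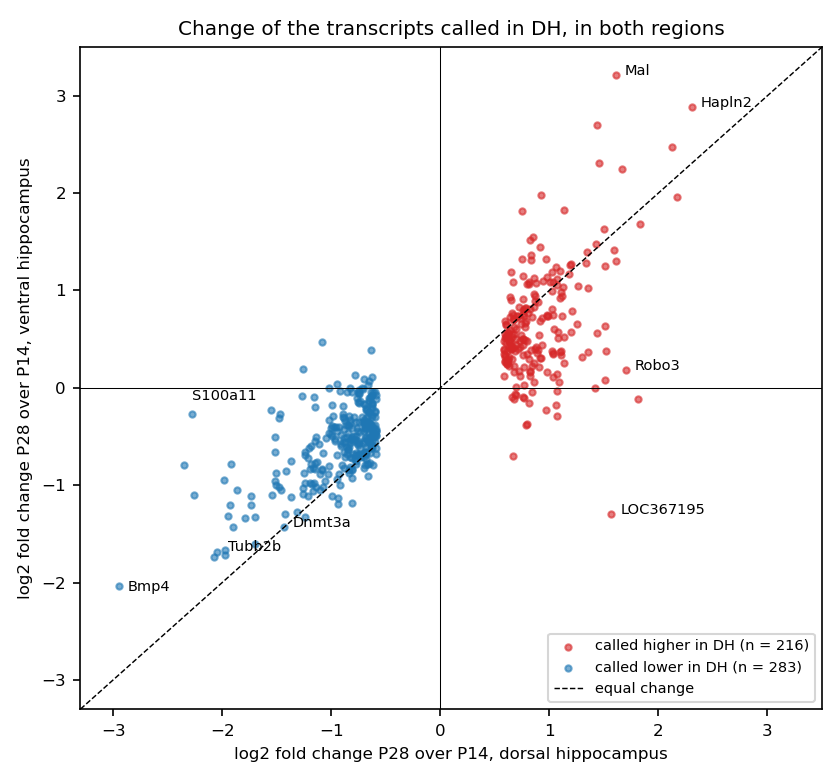
Log2 fold change from P14 to P28 of the 499 transcripts called in the DH, in the DH on the horizontal axis and in the VH on the vertical axis, 1 point per transcript, with calls higher in the DH in red and calls lower in blue and the line of equal change dashed. Of the red points 198 of 216 lie above 0 on the vertical axis and of the blue points 271 of 283 lie below it, and Mal lies above the dashed line while Robo3 lies near 0 in the VH.

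The 2 transcripts of the interaction had very low levels. The second transcript of Cthrc1, NM_001271300, was close to 0 at P14 and at 0.43 and 0.527 FPKM at P28 in the DH, and at 0.639 and 0.487 FPKM at P14 and close to 0 at P28 in the VH (adjusted p = 0.00964). Tnp2, a transition protein of sperm, was listed at 0 in all libraries of P14 and P28 except those of P28 VH, at 0.547 and 0.537 FPKM (adjusted p = 0.0318). The next in order of p were Slc19a3, a thiamine transporter, at 1.11 and 1.45 FPKM at P14 and 2.88 and 2.36 FPKM at P28 in the DH and 1.44 and 1.59 FPKM at P14 and 0.545 and 0.536 FPKM at P28 in the VH, RT1-CE6, a class I histocompatibility gene listed at 0 in all these libraries but those of P14 DH, at 1.15 and 0.916 FPKM, and Bcar1, an adaptor protein of focal adhesions, at 43.9 and 44.2 FPKM at P14 and 28.4 and 29.6 FPKM at P28 in the DH and 31 and 31.5 FPKM at P14 and 29.2 and 28.3 FPKM at P28 in the VH, each with an adjusted p of 0.251. In Slc19a3 the 2 regions moved in opposite directions.

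For the myelin genes the VH began from lower levels. Mal was at 13.4 and 28.7 FPKM at P14 and 228 and 161 FPKM at P28 in the VH (log2 fold change 3.22, against 1.61 in the DH), Mbp at 292 and 408 FPKM at P14 and 1381 and 1106 FPKM at P28 (1.84 against 0.85) and Mag at 46.6 and 61.5 FPKM at P14 and 115 and 97.2 FPKM at P28 (0.97 against −0.10). At P14 both VH libraries were below both DH libraries for each of these, and at P28 the levels lay closer together. Summed over the list, the VH was at 1282 and 1868 FPKM at P14 and 5341 and 4374 FPKM at P28. The median of the list was 1.09 in the VH, where 18 of 28 members were called higher, and 0.46 in the DH, where 8 were, but no member passed the interaction test at an adjusted p under 0.05, and 16 of 28 had an unadjusted p under 0.05. For the immature neuron list the medians were −0.94 in the DH and −0.76 in the VH, again with no interaction at an adjusted p under 0.05 and 9 of 28 at an unadjusted p under 0.05. Dcx was at 21.2 and 27.7 FPKM at P14 and 11 and 11.4 FPKM at P28 in the VH, where its change was −1.05 against −1.87 in the DH, and Dnmt3a was at 36.4 and 35.7 FPKM at P14 and 11.9 and 13.7 FPKM at P28, with the same change of −1.43 as in the DH. Robo3 stayed under 1 FPKM in the VH at both ages, at 0.0784 and 0.068 FPKM at P14 and 0.353 and 0.0947 FPKM at P28, with an adjusted interaction p of 0.29.

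The levels in the DH at P45 are set beside those at P28. This comparison shares the P28 libraries with the one above. From P28 to P45 it called 1 transcript (0.00701% of 14259, with 248 at an unadjusted p under 0.05 with the fold), Ntf3 NM_001270868, which codes for neurotrophin-3 and is named here after its value was seen (2.81e-05 and 1.39e-05 FPKM at P28 and 0.544 and 0.512 FPKM at P45, log2 fold change 0.61, adjusted p = 0.00606). None of the genes that follow passed this test, and their positions relative to P28 are descriptions. Hapln2 was at 13.5 and 15.2 FPKM at P45, Ermn at 64.1 and 49.4 and Tf at 92.6 and 122, so that both Hapln2 values lay above P28 while Ermn and Tf overlapped with P28. Mal, by contrast, was at 142 and 128, Klk6 at 12.1 and 9.63 and Gpd1 at 41.5 and 57.9 FPKM, between the levels of P14 and P28. Dcx was at 5.08 and 5.67 FPKM, Tubb2b at 114 and 117 and Sox11 at 3.23 and 3.74, below both P28 libraries. Scn4b stood at 20.3 and 16.4 FPKM, Kcnab1 at 102 and 94.1 and Rgs14 at 87.2 and 73.7, where Kcnab1 and Rgs14 overlapped with P28 and Scn4b was above it. The haemoglobin chain Hbb was at 455 and 522 FPKM, again between the younger ages, and Kdr was at 3.0 and 2.55, above both P28 libraries.

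**Figure D4:**
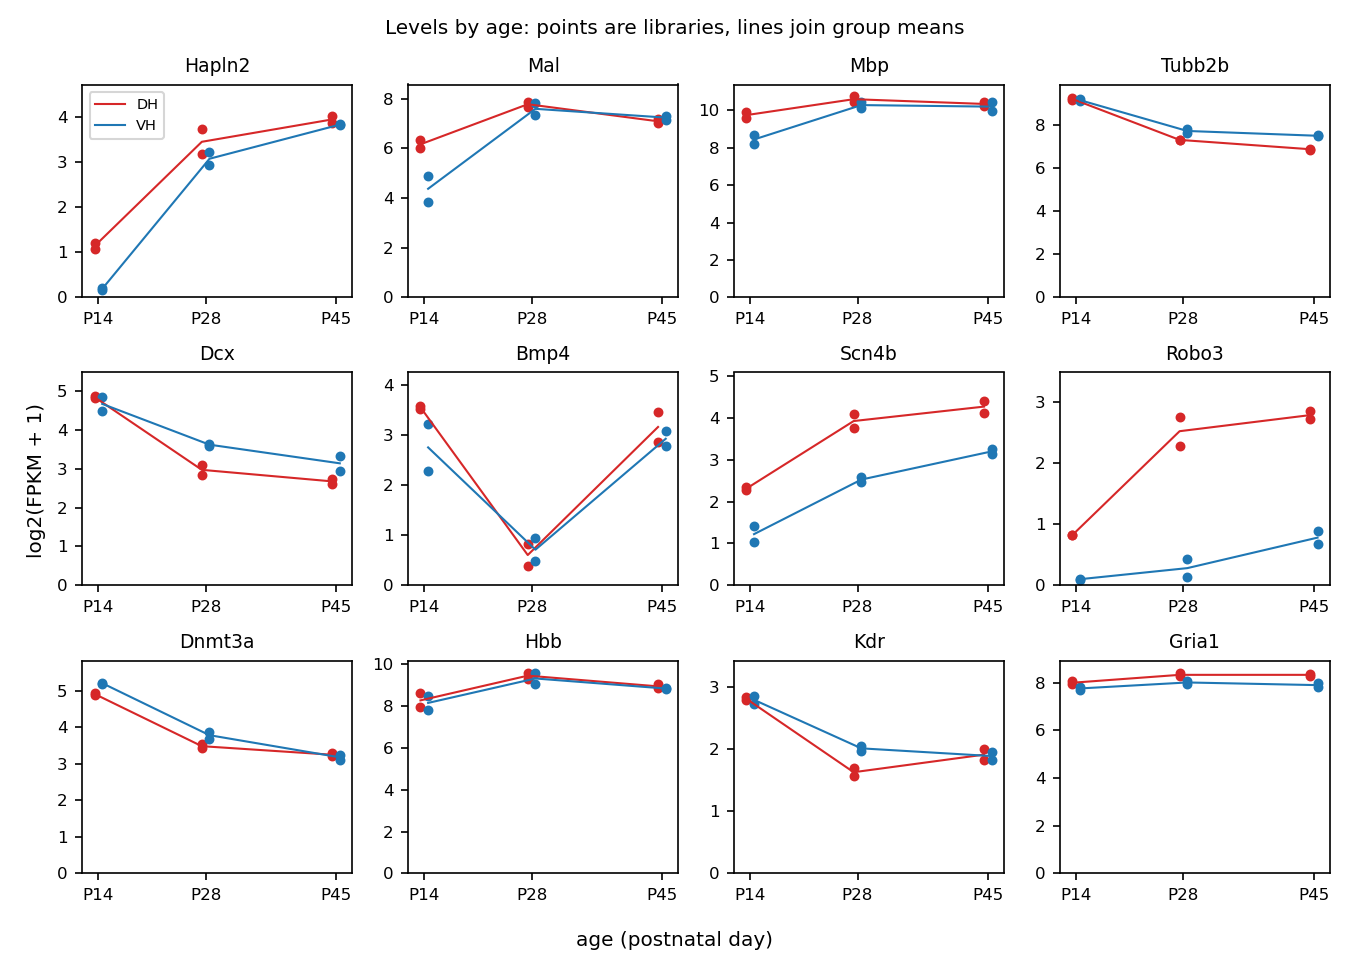
Levels of 12 genes as log2(FPKM + 1) on the vertical axis at P14, P28 and P45 on the horizontal axis, in the DH (red) and the VH (blue), where points are single libraries and lines join the means of 2 libraries. Hapln2, Mal and Scn4b are higher at P28 than at P14 in both regions, Tubb2b, Dcx, Dnmt3a and Kdr are lower, Robo3 is higher in the DH at all 3 ages, and Bmp4 is low at P28 alone, at 0.312 and 0.766 FPKM in the DH against 6.29 and 9.97 at P45.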

How the data were processed

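Poly(A) RNA of 12 rat hippocampus libraries was measured by RNA-seq, 2 for each of 6 groups of region and age. The authors deposited 1 table of FPKM values for 17933 transcripts. The submitters' processing notes name TopHat2 2.0, Bowtie2 2.1.0, SAMtools 0.1.19, Cufflinks 2.2.1, R 3.3.0 and the build rn5. Cufflinks estimates how reads divide between the transcripts of a gene. The table carries no read counts. Mapped read pairs per library are given with the study but were not part of the deposited values, and they are lowest in both P28 DH libraries, so counting error is largest there and was not estimated. Whether a further scaling between libraries was applied to these values is not shown by the table.

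Transcripts above 0 in at least 2 of the 12 libraries were kept (14259, with 3674 not tested). Values were taken as log2(FPKM + 1), a mean was fitted to each of the 6 groups with limma 3.58.1 in R 4.3.3 (eBayes with a trend, 6 residual degrees of freedom), and contrasts were made for P28 against P14 in the DH, for the same step in the VH, for their difference and for P45 against P28. The p-values were adjusted by Benjamini-Hochberg over all transcripts tested. limma was used in place of a count test because FPKM values are not counts. On simulated data with this design, 96 of 100 transcripts changed by a log2 value of 2 and 68 of 100 changed by 1 were recovered. There were 5 false calls among the unchanged rest of the 14259. The changed transcripts were drawn from those with a mean log2(FPKM + 1) above 1, with normal noise independent between libraries. Recovery at lower levels and unequal depth were not simulated.

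Genes were named as the 15 largest changes in each direction, up to 4 called members per role of each list with its best known members, the 5 smallest p-values of the interaction, and 6 regional or reference genes. Features outside this rule are said to have been chosen after their values were seen. The members and the 34 lists were chosen with earlier results of these data known. Where a gene has several transcripts, the one with the highest mean over the 12 libraries stands for it in a list. In 27 entries the table gives no symbol. The alternatives were another pseudocount (0.1), a mean of at least 1 FPKM, no filter, quantile normalization, only the libraries compared, only dorsal libraries, limma's treat against the fold of 1.5, a replicate block, eBayes with no trend, an adjusted p under 0.01, FPKM summed per symbol, and leaving out each library. Duplicates had correlations of 0.993 (P14 DH) and 0.990 (P28 DH) on the log2 scale across transcripts, and none of the 4 libraries repeats another. Promoter sequences came from RefSeq, build GRCr8, which is not the build of the table, and were matched by symbol. Python 3.11.15, pandas 2.3.3, NumPy 2.4.6 and matplotlib 3.10.9 were used for tables and plots. Some members of the lists are counted but their values are not reported here.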

Additional observations from a re-analysis of the deposited data

Results flagged for a closer look

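A few transcripts stood out because their change from P14 to P28 differed between the regions. Cthrc1 NM_001271300 passed the interaction test (limma, adjusted p = 0.00964), with a rise in the DH and a fall in the VH at levels under 1 FPKM. Tnp2 NM_017057 passed it too (adjusted p = 0.0318), being listed at 0 in both DH groups and in P14 VH and at 0.547 and 0.537 FPKM in P28 VH. In LOC367195 NM_001047920 both DH libraries of P28 lay above those of P14 while both VH libraries were listed at 0 at P28, a difference in log2 fold change of 2.86 that missed the adjusted threshold (adjusted p = 0.374). In Slc19a3 NM_001108228 the DH rose and the VH fell, with a difference of 1.38 on the log2 scale (adjusted p = 0.251).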

How the results depend on the processing

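The counts of transcripts called changed with the libraries that entered the fit and with the test and threshold used. With only the libraries compared, the counts were 0 higher, 0 lower and 0 for the interaction (335, 427 and 921 at an unadjusted p under 0.05, with the fold for the first pair), and with only dorsal libraries they were 109 higher and 150 lower. limma's treat test against the fold of 1.5 gave 2, 22 and 0, and an adjusted p under 0.01 gave 82, 126 and 1. Leaving out each library gave 77 to 143 higher, 133 to 208 lower and 3 to 9 for the interaction, the lone library then being assumed to vary like the other groups. For the interaction alone, a mean of at least 1 FPKM gave 0 (680 at an unadjusted p under 0.05), no filter 20, quantile normalization 1, eBayes without a trend 1 and FPKM summed per symbol 0. The other counts of higher and lower transcripts stayed within 1.5 times those reported (152 to 260 higher, 223 to 314 lower). The cause of these shifts was not tested.

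Replicate numbers were tried as a replicate block, which gave 207 higher, 260 lower and 0 for the interaction. The labels do not say that a number marks shared animals, and the replicate differences of P14 DH and P28 DH correlated at 0.036 across transcripts. The 3 highest correlations of all 15 pairs of groups were those between both regions of 1 age (0.075 for P14, 0.098 for P28, 0.11 for P45), and the lowest was −0.084. Not every pair was over 0.1, so the numbers were not taken to pair the libraries, but whether the regions of 1 age share animals is not known. The block was a single shift common to all ages, so pairing of the regions within an age was not tested. Of 111 named transcripts called, between 53 and 67 remained called when 1 library was left out, 0 with only the libraries compared, 15 under treat, 57 at an adjusted p under 0.01, 66 with only dorsal libraries, 88 with no filter and between 100 and 110 in the other alternatives, and 0 reversed in any of them. The 111 do not include Mbp NM_001025294 and Aplp2 NM_022520, which were chosen after their values were seen. Both were called lower, but the sums over their symbols lay above 0 (log2 fold change 0.33 and 0.11) and were not called. Among transcripts not called in the main comparison, Cthrc1 NM_001271300 reversed when FPKM was summed per symbol (−1.70). Depth limits the reading of low transcripts, since 13 of the transcripts higher and 28 of those lower had a mean under 1 FPKM.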

Other observations

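Further calls outside the lists, chosen after their values were seen, concerned single genes of several cell types. Among those that rose, Itpr1, an intracellular calcium release channel, was at 31.4 and 33.6 FPKM at P14 and 74.5 and 83.1 FPKM at P28 (log2 fold change 1.25, SE 0.19, adjusted p = 0.00856), Car2, the carbonic anhydrase of oligodendrocytes, was at 39.98 and 42.8 FPKM at P14 and 92.1 and 84.3 FPKM at P28 (log2 fold change 1.07, SE 0.088, adjusted p = 0.000945), and Ddn, the dendrite protein dendrin, was at 326 and 330.4 FPKM at P14 and 663 and 583 FPKM at P28 (log2 fold change 0.92, SE 0.12, adjusted p = 0.00527). Gsn, the actin-severing protein gelsolin, was at 40.6 and 27.2 FPKM at P14 and 60.8 and 58.6 FPKM at P28 (log2 fold change 0.83, SE 0.19, adjusted p = 0.0375). Among those that fell, Fabp7, a fatty acid-binding protein of radial glia and astrocytes, was at 469 and 499.8 FPKM at P14 and 218 and 187 FPKM at P28 (log2 fold change −1.26, SE 0.093, adjusted p = 0.000729), and Vim, the intermediate filament vimentin, was at 36.5 and 41.2 FPKM at P14 and 22.2 and 16.3 FPKM at P28 (log2 fold change −0.99, SE 0.15, adjusted p = 0.00873). Tmsb10, an actin-binding thymosin, was at 1122 and 1159 FPKM at P14 and 537 and 431 FPKM at P28 (log2 fold change −1.24, SE 0.10, adjusted p = 0.000923). Eln, which codes for elastin, was at 11.2 and 15 FPKM at P14 and 5.32 and 2.63 FPKM at P28 (log2 fold change −1.55, SE 0.30, adjusted p = 0.0216). Lmnb1, the nuclear lamin B1, was at 8.86 and 10.2 FPKM at P14 and 3.01 and 4.09 FPKM at P28 (log2 fold change −1.22, SE 0.13, adjusted p = 0.00247), and Hes6, a factor of neural differentiation, was at 25.8 and 25.9 FPKM at P14 and 10.4 and 11 FPKM at P28 (log2 fold change −1.20, SE 0.10, adjusted p = 0.000964).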
